A study of Mus musculus with 24 samples.

Results

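The retinas of 129S1/Svlmj mice, an inbred strain that is strongly myopic, were compared with those of C57BL/6J mice, which are close to emmetropic. All libraries that the labels assign to these strains were taken, 3 of 129S1/Svlmj and 3 of C57BL/6J, which is 6 of the 24 libraries in the series. The series measured total RNA of whole retinas by RNA-seq in 8 inbred mouse strains with 3 libraries per strain. Mice of both groups were wild type, untreated and at postnatal day 28. Per the methods refraction was measured at a later age, so it describes the strains and not the sequenced mice. The comparison asks how the retinal transcriptome of a myopic strain differs from that of an emmetropic strain. The methods call each sample a biological replicate, but the labels do not say that the replicates are separate animals, so the p-values measure the spread between these samples.

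The retina converts light into neural signals through photoreceptors, bipolar cells, amacrine cells and ganglion cells, with Müller glia spanning its layers. During postnatal growth the retina reads optical defocus and sends signals that adjust the length of the eye, a process called emmetropization. Inbred strains differ by fixed sequence variants throughout the genome, so a gene can differ in level between strains for reasons unrelated to refraction.

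Values are in cpm, read counts scaled to a common total of reads per library. The listed genes summed to 336699 to 363468 cpm per library, so the total used for scaling was larger than the reads in the listed genes. Estimated depth was 61529000, 76306000 and 62649000 reads in 129S1/Svlmj replicates 1, 2 and 3 and 62595000, 78150000 and 59421000 reads in C57BL/6J replicates 1, 2 and 3. A level of 3 reads corresponded to 0.0384 to 0.0505 cpm, which served as the detection floor for counting error. Below, values are always given in the order of replicates 1, 2 and 3, first for 129S1/Svlmj and then for C57BL/6J. These numbers follow the order of accession, only name the libraries and pair none of them.

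Retinal markers were abundant in every library. The 12 retinal marker genes summed to 9002, 9512 and 8804 cpm in 129S1/Svlmj and 11210, 10790 and 11450 cpm in C57BL/6J. Lens RNA was uneven. The 22 lens marker genes summed to 75.5, 2013 and 46.4 cpm in 129S1/Svlmj and 8.33, 279 and 15.0 cpm in C57BL/6J. Replicate 2 of each strain was the highest of its group, and among the remaining libraries both of 129S1/Svlmj were above both of C57BL/6J. The most abundant lens gene was Cryaa, a small heat shock protein of the lens fibre, at 15.7, 725 and 9.48 cpm against 1.81, 90.9 and 3.80 cpm, whereas Birc7 stayed at or under 3 reads. Of 20 lens markers tested, 1 was called higher with all libraries (5%, against 7.64% of all genes) and 13 were called higher without replicate 2 of each strain. That gene was the gamma-crystallin Cryga, at 2.82, 4.95 and 1.88 cpm against 0.00138, 0.998 and 0.135 cpm, and it shares 44.0% of its sequence words with other genes. The part of lens RNA in the other differences was not tested beyond a fit without both replicates 2.

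Sums of markers of other tissues overlapped between the groups. Pigment epithelium and melanocyte markers, led by Otx2, summed to 118, 130 and 113 cpm against 116, 86.4 and 114 cpm. Without Otx2, which is also expressed in the retina, the sums were 64.4, 74.9 and 62.1 cpm against 54.6, 30.4 and 54.0 cpm and did not overlap. Over the full list 11 of 12 members tested were positive, all but Otx2, with a median difference of 0.33. Blood markers, led by Hbb-bs and with Ms4a1 at or under the floor, summed to 28.2, 18.5 and 17.4 cpm against 20.7, 25.8 and 8.18 cpm. Microglial markers summed to 12.1, 15.9 and 15.1 cpm against 15.9, 15.7 and 17.2 cpm. Of 7 microglial members tested 5 were negative, with a median of -0.25. Endothelial and pericyte markers, led by Kdr, summed to 136, 139 and 130 cpm against 137, 149 and 144 cpm. Without Kdr they summed to 69.5, 74.8 and 65.0 cpm against 76.8, 88.5 and 85.6 cpm with no overlap. Over the full list 13 of 14 members were negative, all but Kdr, with a median of -0.20. The markers of ciliary body, iris and muscle, led by Myh11, summed to 3.53, 6.15 and 4.74 cpm against 5.68, 5.42 and 5.15 cpm. The sums without Otx2 and without Kdr were computed after the values were seen. No gene of these 5 lists was called by limma, with 9, 1, 4, 8 and 1 members at an unadjusted p under 0.05.

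**Figure D1:**
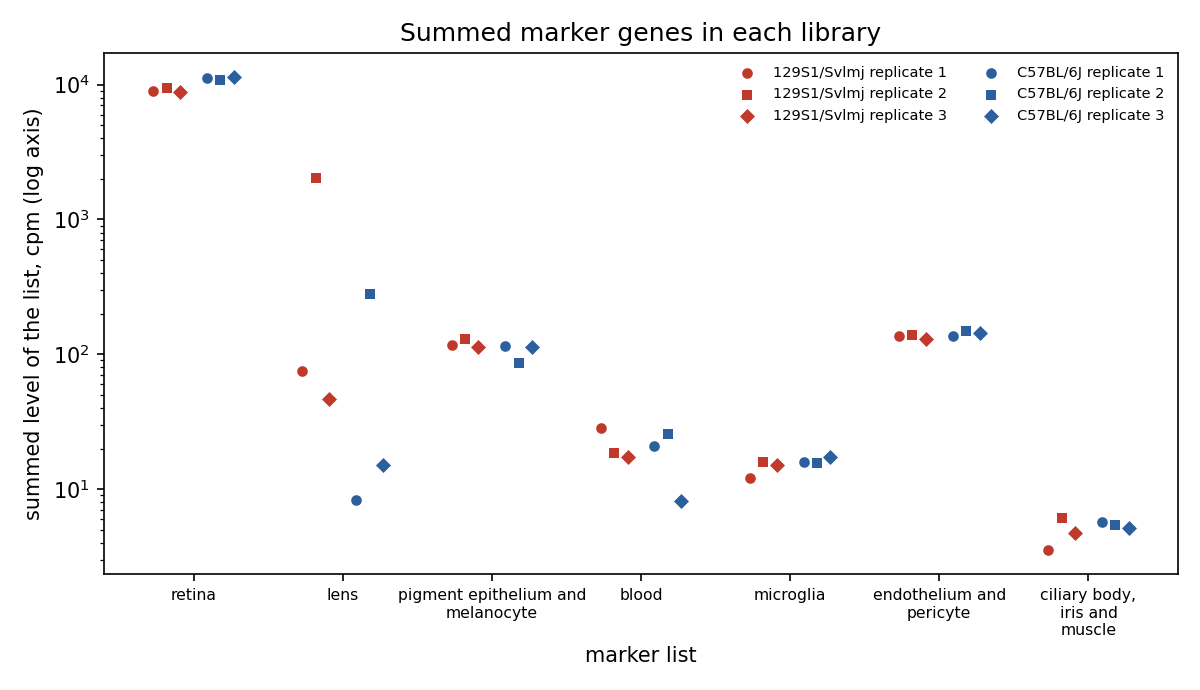
Summed level of 7 marker lists in each of the 6 libraries, in cpm on a log axis, with a point for each replicate of 129S1/Svlmj (red) and C57BL/6J (blue). Lens markers reached 2013 cpm in 129S1/Svlmj replicate 2 and 279 cpm in C57BL/6J replicate 2, while retinal markers stayed between 8804 and 11450 cpm.

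Sex was not given by the labels. Xist, the RNA that coats the inactive X chromosome, was at 0.260, 0.420 and 962 cpm in 129S1/Svlmj and at 0.272, 0.499 and 906 cpm in C57BL/6J. The Y-linked helicase gene Ddx3y was at 32.3, 31.3 and 0.0001 cpm against 33.9, 32.7 and 0.118 cpm. Replicate 3 of each strain was therefore the Xist-high library, the sexes were balanced between strains, and chromosomes X and Y were left out of the test. Gabra2, which encodes a GABA-A receptor subunit and carries a known expression-lowering deletion in C57BL/6J, served as a check of the strain labels. It was at 16.8, 16.9 and 15.7 cpm in 129S1/Svlmj and 7.30, 8.28 and 7.78 cpm in C57BL/6J. The C57BL/6J libraries were the lower ones without overlap, and the mean of each of the other 6 strains lay nearer to that of 129S1/Svlmj on the log2 scale. Nnt, a mitochondrial transhydrogenase with a known deletion of exons in C57BL/6J, was a further check and did not show a lower level there. It was at 3.25, 4.12 and 3.83 cpm in 129S1/Svlmj and 4.81, 4.72 and 4.93 cpm in C57BL/6J, higher in every C57BL/6J library without a call (limma q = 0.0401). Values per gene cannot show missing exons, and 47.8% of its words are shared with another gene entry, so Nnt leaves the labels unchecked.

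Many genes differed between the strains, most of them by small amounts. With limma on log2(cpm + 1) and a q-value under 0.01, 1208 of 15809 genes tested were called, which is 7.64%. In 129S1/Svlmj 558 genes were higher (3.53% of those tested) and 650 were lower (4.11%). The median absolute difference of called genes was 0.56 on the log2 scale, against 0.095 over all genes, and the median difference over all genes was -0.0018. A difference of at least 2-fold was reached by 242 genes (1.53%), 101 of them higher (0.639%) and 141 lower (0.892%). On this scale the added 1 cpm understates the change of genes at low levels. Each of 6 libraries was left out in turn, as were both replicates 2 together, and 641 genes (4.05%) were called in all 7 of these fits, 298 higher and 343 lower. Of the 2-fold genes 236 were among them. Without both replicates 2 the fit called 1029 genes, 904 of them shared with the full fit, which is 74.8% of its calls. The count fell to 757 without 129S1/Svlmj replicate 3 and to 709 without C57BL/6J replicate 3, the Xist-high libraries.

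All 1208 called genes had groups that did not overlap, which was also true of 4539 genes tested, 28.7% of all. Across genes, the correlation of log2 levels was 0.990 to 0.997 between libraries of the same strain and 0.974 to 0.982 between strains. The genes are not independent replicates in these correlations. The reads were aligned to the reference genome, which is that of C57BL/6J, so a strain difference in level and a difference in how well reads match the reference cannot be told apart.

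**Figure D2:**
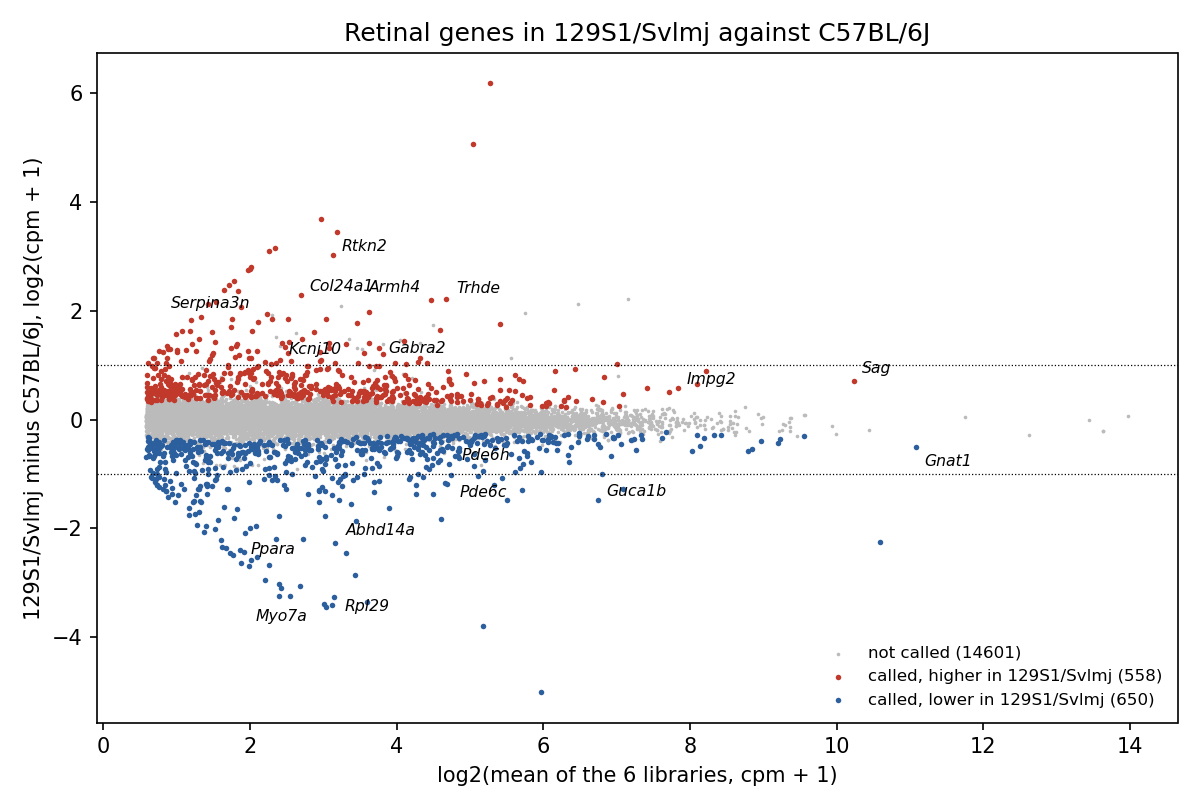
Difference between 129S1/Svlmj and C57BL/6J in log2(cpm + 1) against the log2 level of each of 15809 genes, with called genes in red (558 higher in 129S1/Svlmj) and blue (650 lower) and dotted lines at 2-fold. Trhde, Armh4 and Col24a1 lie far above the line, Myo7a and Ppara far below it, and among abundant genes Sag lies above 0 and Gnat1 below it, a direction that flips for Gnat1 under quantile normalization.

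The rod phototransduction cascade leaned lower in 129S1/Svlmj. Of 20 members tested 5 were called lower and 1 was called higher, 30.0% against 7.64% of all genes. The median difference was -0.18, with 18 members negative, and moved to -0.06 under quantile normalization, where 14 were negative, 2 were called lower and 1 higher. The change was largest for Guca1b and opposite in sign for Sag. Because whole retinas were measured, fewer cells of a type and less RNA per cell cannot be told apart.

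The G protein and the enzyme it activates come early in the cascade. Gnat1, the alpha subunit of rod transducin, was at 1787, 1857 and 1750 cpm against 2584, 2456 and 2598 cpm. The groups did not overlap and the difference was -0.50 ± 0.06 (SE, n = 3 per strain; limma q = 0.000244), but the direction of Gnat1 flips under quantile normalization, to 0.05 without a call, and the call was also lost without a filter on low values (difference -0.50, limma q = 0.0142) and without a log transformation (limma q = 0.659). Pde6a, the catalytic alpha subunit of the rod phosphodiesterase that transducin activates, was at 512, 534 and 524 cpm against 655, 684 and 684 cpm. Its libraries separated by strain, with a difference of -0.37 ± 0.05 (limma q = 0.000639) that was no longer called under quantile normalization.

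The proteins that end the light response went both ways. Sag, the rod arrestin that ends signalling by the light-activated receptor, was at 1368, 1618 and 1490 cpm in 129S1/Svlmj and 862, 1010 and 879 cpm in C57BL/6J. All 129S1/Svlmj libraries were higher, a 1.63-fold ratio of means and a difference of 0.70 ± 0.08 (limma q = 0.000235) that was not called on values without a log transformation. In the other 6 strains the mean of Sag ran from 1346 cpm in WSB/EiJ to 2210 cpm in NOD/ShiLtJ, so C57BL/6J was the lowest of the 8. The photoreceptor kinase gene Grk1, given with Rgs9 after their values were seen to complete the list, was at 625, 712 and 682 cpm against 795, 851 and 844 cpm. Its groups were separate, with a difference of -0.30 that was called in only 2 of the 7 leave-out fits. Rgs9, which speeds the shutoff of transducin, was at 112, 108 and 116 cpm against 153, 166 and 138 cpm, lower in every 129S1/Svlmj library by a difference of -0.44.

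Guca1b, which encodes a calcium sensor that activates guanylate cyclase as calcium falls in the light, was at 52.8, 58.4 and 56.0 cpm in 129S1/Svlmj and 154, 161 and 154 cpm in C57BL/6J. No library of one strain came near those of the other. The C57BL/6J mean was 2.81 times the 129S1/Svlmj mean, a difference of -1.47 ± 0.05 (limma q = 6.74e-08). Guca1b was at 130 to 145 cpm in the other 6 strains, so 129S1/Svlmj alone stood low. Guca1b lies on chromosome 17 at chr17:47385393-47392968.

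Cone phototransduction also leaned lower. Of 9 members tested 3 were called lower and 0 higher, 33.3% against 7.64% of all genes, with 4 at an unadjusted p under 0.05 by limma, and the median was -0.14. Pde6c, the catalytic subunit of the cone phosphodiesterase, was at 13.9, 15.0 and 15.0 cpm in 129S1/Svlmj and 35.1, 33.0 and 35.9 cpm in C57BL/6J. The strains were separate and the difference was -1.19 ± 0.06 (limma q = 7.61e-07). Pde6h, the inhibitory gamma subunit of the same enzyme, was at 16.4, 18.7 and 18.9 cpm against 31.1, 35.9 and 30.8 cpm. It was lower in each 129S1/Svlmj library, by a difference of -0.82 ± 0.08 (limma q = 6.31e-05). Slc24a2, the cone exchanger of sodium, calcium and potassium, was at 35.8, 35.6 and 37.0 cpm against 50.8, 50.4 and 49.7 cpm, a difference of -0.47 with no overlap. The short-wavelength opsin Opn1sw overlapped between the groups, at 119, 124 and 104 cpm against 92.9, 114 and 111 cpm, and was not called. In the other 6 strains the mean of Pde6c ran from 10.5 cpm in NOD/ShiLtJ to 41.2 cpm in PWK/PhJ, on both sides of the 2 strains compared.

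**Figure D3:**
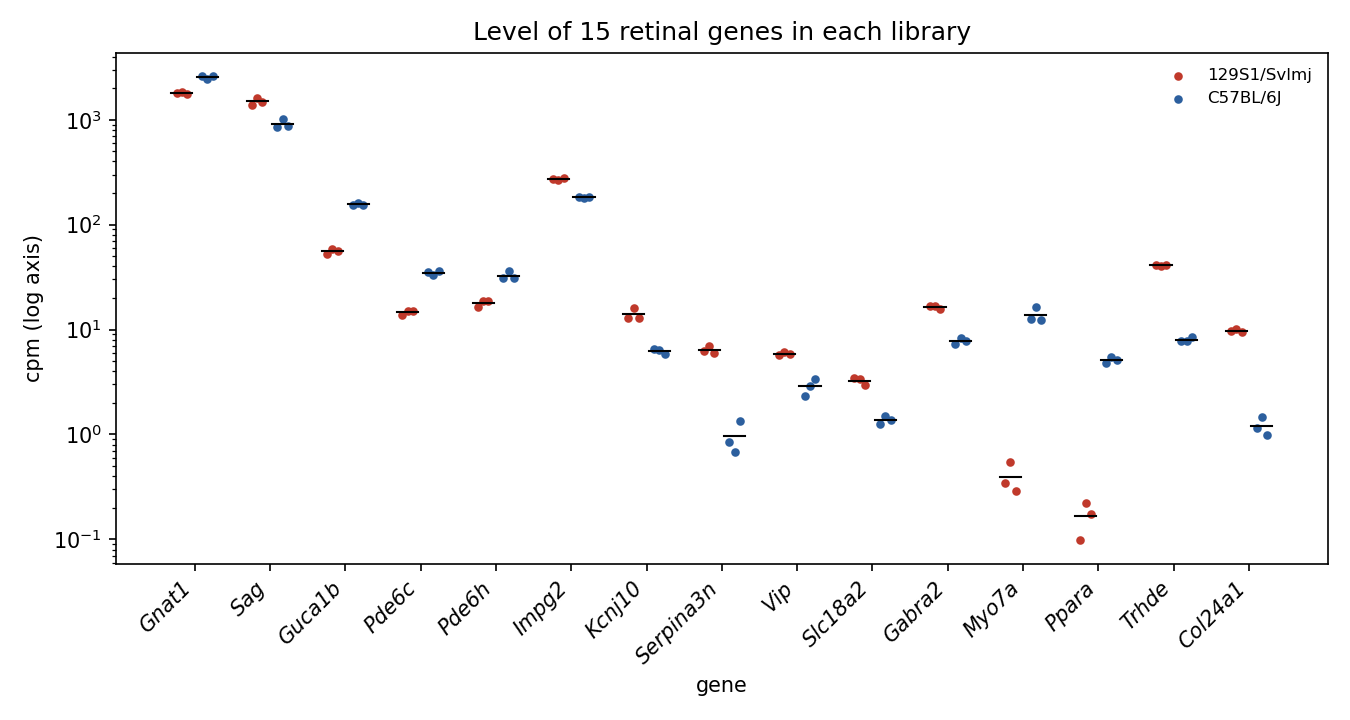
Level of 15 genes in each of the 6 libraries, in cpm on a log axis, with 129S1/Svlmj in red, C57BL/6J in blue and a bar at the mean of each strain. Guca1b, Pde6c and Pde6h lie lower in 129S1/Svlmj and Sag, Impg2, Kcnj10 and Trhde higher, with no overlap, and Gnat1 lies lower in a direction that flips under quantile normalization.

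Promoter sequences were read for the phototransduction genes because several of them moved together and the photoreceptor transcription factor Crx is known to act on this set. The core word of Crx sites, GGATTA, was searched on both strands (its complement is TAATCC) in the windows of 250 bases before to 50 after each gene start from RefSeq, build GRCm38.p6. The word was present in 2320 of 32851 such promoters of 300 bases, which is 7.06%. Of the genes tested on both lists 18 matched an entry by symbol, and 8 of them held the word. Among the 5 called genes with an entry 1 held it, and among the 13 genes not called 7 held it. The called genes Guca1b, Gnat1, Pde6a and Pde6c had no entry. The promoters of Sag and Pde6h are shown as called genes of opposite direction. That of Sag holds 1 match, in capitals, and that of Pde6h holds none. They lie at chr1:87803430-87803729 and chr6:136954273-136954572, both on the plus strand. These are the sequences of the C57BL/6J reference, and the 129S1/Svlmj sequence was not used here. A match describes the letters and does not show a bound site.
Sag: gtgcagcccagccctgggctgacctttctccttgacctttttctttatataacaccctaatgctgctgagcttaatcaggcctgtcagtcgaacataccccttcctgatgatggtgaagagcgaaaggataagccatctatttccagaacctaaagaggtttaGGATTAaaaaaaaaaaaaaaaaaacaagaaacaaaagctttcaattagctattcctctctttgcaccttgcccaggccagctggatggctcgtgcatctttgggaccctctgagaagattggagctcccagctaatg
Pde6h: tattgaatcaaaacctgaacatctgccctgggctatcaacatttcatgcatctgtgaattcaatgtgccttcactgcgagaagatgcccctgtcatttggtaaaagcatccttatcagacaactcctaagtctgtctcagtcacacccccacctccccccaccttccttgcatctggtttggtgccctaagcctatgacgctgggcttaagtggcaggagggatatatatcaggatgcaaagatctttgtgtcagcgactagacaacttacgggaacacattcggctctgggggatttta

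In the outer segment and visual cycle list 1 of 18 genes was called higher and 1 lower, 11.1% against 7.64% of all genes, with a median of -0.09 that moved to -0.01 under quantile normalization. Impg2, a proteoglycan of the matrix around photoreceptor outer segments, was at 272, 267 and 279 cpm in 129S1/Svlmj and 182, 179 and 185 cpm in C57BL/6J. All 3 libraries of 129S1/Svlmj were higher, by a difference of 0.58 ± 0.05 (limma q = 1.63e-05). Prom1, needed for forming outer segment discs, was at 237, 253 and 246 cpm against 298, 314 and 284 cpm. Its groups were separate, but the difference of -0.28 was called in only 1 of 7 leave-out fits and was not called under quantile normalization, without a filter on low values or without a trend.

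Of 17 ribbon synapse genes 14 were negative and 3 positive, with a median of -0.10 and 7 at an unadjusted p under 0.05. Under quantile normalization 13 were negative, with a median of -0.07. As deposited 1 was called (5.88%, against 7.64% of all genes), Unc13b, a priming factor of synaptic vesicles, at 425, 429 and 443 cpm against 561, 589 and 552 cpm. It was lower in every 129S1/Svlmj library, by -0.39 ± 0.05 (limma q = 0.000470), and was not called under quantile normalization. None of the 13 genes tested of the ON bipolar signalling list was called by limma, with 3 at an unadjusted p under 0.05 and a median of 0.04. That list also holds Isl1, Pcp2 and Prkca, and its member Nyx was left out with chromosomes X and Y. None of 17 ganglion cell genes was called by limma, with 5 at an unadjusted p under 0.05 and a median of -0.12.

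Among amacrine and dopamine genes 1 of 20 was called higher, 5% against 7.64% of all genes. Slc18a2, the vesicular transporter that loads dopamine and other monoamines, was at 3.43, 3.41 and 2.97 cpm in 129S1/Svlmj and 1.25, 1.5 and 1.36 cpm in C57BL/6J. The strains did not overlap and the ratio of means was 2.39-fold, a difference of 0.85 ± 0.09 (limma q = 9.10e-05). Th, the rate-limiting enzyme of dopamine synthesis, named after its values were seen, was at 0.634, 0.904 and 0.782 cpm against 0.543, 0.793 and 0.640 cpm. Th overlapped between the strains and was not called.

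Of 12 neuropeptide and receptor genes 2 were called higher (16.7%, against 7.64% of all genes), the peptide Vip and its receptor Vipr2. Vip, vasoactive intestinal peptide of amacrine cells, was at 5.69, 6.11 and 5.86 cpm in 129S1/Svlmj and 2.33, 2.92 and 3.40 cpm in C57BL/6J. Each 129S1/Svlmj library was above each C57BL/6J library, with a ratio of means of 2.04-fold and a difference of 0.83 ± 0.11 (limma q = 0.000440). Vipr2 was at 15.6, 16.2 and 15.7 cpm against 10.9, 12.7 and 12.1 cpm, a difference of 0.39 ± 0.07 (limma q = 0.00360). Its groups were separate, and the call was kept in only 2 of the 7 leave-out fits.

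Of 15 GABA and glycine receptor genes 2 were called higher and 0 lower by limma (13.3%, against 7.64% of all genes called and 3.53% called higher), with 5 at an unadjusted p under 0.05, and the median was 0.09. They were Gabra2, with a difference of 0.99 ± 0.07 (limma q = 6.83e-06), which was called in all 7 leave-out fits, and Glra3, a glycine receptor alpha subunit, at 25.4, 23.2 and 25.1 cpm against 18.6, 17.9 and 20.4 cpm. Glra3 was separate between the strains and called in 3 of the 7 leave-out fits. Of 23 glutamate receptor genes 3 were called higher and 0 lower by limma (13.0%), with 9 at an unadjusted p under 0.05, 19 positive and a median of 0.14. Grin2c, an NMDA receptor subunit, was at 1.30, 1.52 and 1.26 cpm against 0.543, 0.781 and 0.555 cpm. It was higher in every 129S1/Svlmj library, by 0.54, and lost its call without C57BL/6J replicate 3 and without a filter on low values. The AMPA receptor subunit Gria1 (0.38) and the metabotropic receptor Grm3 (0.36) were called in 1 and 0 of the 7 leave-out fits.

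None of the 15 immediate early genes was called by limma, with 2 at an unadjusted p under 0.05 and a median of 0.07. Egr1, an activity-induced transcription factor named after its values were seen, was at 5.62, 2.11 and 4.58 cpm in 129S1/Svlmj and 4.22, 1.68 and 2.14 cpm in C57BL/6J. The strains overlapped, and replicate 2 was the lowest of each group.

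Of 23 Müller glia genes 2 were called higher and 1 lower, 13.0% against 7.64% of all genes. Kcnj10, the inward rectifier that carries potassium buffering in these glia, was at 12.9, 16.0 and 12.9 cpm in 129S1/Svlmj and 6.52, 6.32 and 5.81 cpm in C57BL/6J. All 129S1/Svlmj libraries were higher, with a ratio of means of 2.24-fold and a difference of 1.05 ± 0.09 (limma q = 3.46e-05). The other 6 strains lay at 10.1 to 15.1 cpm, so C57BL/6J alone stood low. Serpina3n, a protease inhibitor induced in reactive glia, was at 6.26, 7.01 and 5.97 cpm against 0.847, 0.678 and 1.35 cpm. Its groups were far apart (6.70-fold, limma q = 3.59e-06), while 21.6% of its sequence words are shared with other genes, led by Serpina3g, so its reads may be divided and the value is uncertain. Fgf2, a growth factor that rises in stressed retina, was at 4.24, 4.15 and 5.03 cpm against 8.96, 7.83 and 11.2 cpm, lower in each 129S1/Svlmj library by -0.91 ± 0.12 (limma q = 0.000572), a call lost without a filter on low values and without a log transformation. Fgf2 shares 11.8% of its sequence words with other genes, led by Nudt6, so some of its reads may be shared.

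Of 27 clock genes 1 was called higher and 3 lower, 14.8% against 7.64% of all genes, and the median was near 0. Btrc, part of the ubiquitin ligase that marks PER proteins for degradation, was at 43.0, 42.0 and 41.6 cpm in 129S1/Svlmj and 63.9, 68.8 and 64.2 cpm in C57BL/6J. It was lower in all 129S1/Svlmj libraries, by -0.62 ± 0.05 (limma q = 2.30e-05). The clock activators Arntl2 (-0.67) and Arntl (-0.29) and the repressor Ciart (0.45) were called in 4, 0 and 2 of the 7 leave-out fits, and Ciart shares 20.8% of its sequence words with Gm9176.

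Of 13 retinoic acid genes 2 were called higher (15.4%, against 7.64% of all genes), the retinol dehydrogenase Rdh10 (0.32) and the retinaldehyde reductase Dhrs3 (0.42), in 0 and 1 of the 7 leave-out fits. Of 26 BMP and TGF-beta genes 2 were called (7.69%), of which Bmp3 was higher (0.43) and the receptor Bmpr1a lower (-0.32), in 2 and 3 of those fits. Bmp3 was at 8.56, 9.74 and 8.97 cpm in 129S1/Svlmj and 6.21, 6.74 and 6.50 cpm in C57BL/6J, separate between the strains. Of 33 extracellular matrix genes only the fibrillar collagen Col1a1 was called (3.03%), lower by a difference of -0.56 and held in 3 of the fits. Of 34 genes linked to human refractive error 2 were called, Bmp3 and Vipr2, both higher, which is 5.88% against 7.64% of all genes tested. Their median was 0.05, with 25 positive and 9 negative. Of the 34, 3 were called higher under median-ratio scaling (1425 of 15809 genes in all) and 4 under quantile normalization (1369 of 15809).

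Of 34 complex I genes 2 were called lower, 5.88% against 7.64% of all genes. The accessory subunit Ndufs5 (-0.39) was called in 1 of the 7 leave-out fits and shares 26.5% of its words with other genes. Its sum with the copy Ndufs5-ps was 9.995, 11.9 and 10.9 cpm against 9.745, 8.65 and 9.744 cpm, a log2 ratio of 0.22 in the opposite direction without overlap, so its value is uncertain. Of 26 glutathione and redox genes 2 were called (7.69%) and 20 were positive, with a median of 0.14. The methylglyoxal-detoxifying enzyme Glo1 was called higher, at 75.2, 90.8 and 84.2 cpm against 54.7, 58.4 and 56.1 cpm with no overlap, and the transferase Gsto1 lower (-0.46, 3 of the 7 fits). Of 25 DNA and histone methylation genes 2 (8%) were called, both lower. They were the histone methyltransferase Setdb1 (-0.33) and the DNA demethylase Tet3 (-0.32), called in 3 and 2 of the leave-out fits.

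Of 19 antigen presentation and interferon genes 18 were negative, with a median of -0.19, but only Ifi27, at 0.439, 0.655 and 0.543 cpm against 1.05, 1.05 and 0.892 cpm, was called (5.26%, against 7.64% of all genes). Its groups did not overlap, and the difference of -0.37 was called in 1 of the 7 leave-out fits. Of 16 hypoxia and angiogenesis genes 1 was called (6.25%, also below 7.64%), the glycolytic enzyme Eno1, at 63.3, 85.8 and 71.9 cpm in 129S1/Svlmj and 146, 157 and 139 cpm in C57BL/6J. Eno1 shares 28.5% of its words, mainly with Eno1b, and the sum of Eno1 and its copies was 404, 527 and 455 cpm against 471, 492 and 459 cpm. That sum overlapped between the strains with a log2 ratio of -0.04, so the change of Eno1 alone is uncertain.

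The genes with the largest differences were mostly outside these lists, and several were near absent in one strain. Rtkn2, an effector of small GTPases, was at 12.5, 15.9 and 15.5 cpm against 0.863, 0.832 and 1.01 cpm. The ratio of means was 16.2-fold without overlap, and 5 of the other 6 strains lay nearer to 129S1/Svlmj on the log2 scale. Col24a1, a fibrillar collagen chain, was at 9.73, 10.1 and 9.48 cpm against 1.15, 1.47 and 0.993 cpm, an 8.11-fold ratio with the strains far apart.

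Trhde, the ectoenzyme that degrades thyrotropin-releasing hormone, was at 41.6, 39.9 and 41.5 cpm in 129S1/Svlmj and 7.83, 7.72 and 8.53 cpm in C57BL/6J. The other 6 strains lay at 7.46 to 9.33 cpm, so 129S1/Svlmj alone stood high, 5.11-fold above C57BL/6J with a difference of 2.22 ± 0.06 (limma q = 1.31e-08). Armh4 was at 36.2, 35.1 and 35.0 cpm against 7.16, 6.95 and 6.71 cpm, also 5.11-fold. Its groups were separate, and the other strains ranged from 7.07 cpm in CAST/EiJ to 22.6 cpm in NOD/ShiLtJ. Gdpd3, an enzyme of lysophospholipid metabolism, was at 3.84, 5.57 and 5.47 cpm against 0.384, 0.410 and 0.421 cpm, and the other 6 strains lay at 0.162 to 0.424 cpm.

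Among the genes lower in 129S1/Svlmj, Myo7a, an unconventional myosin of photoreceptors, pigment epithelium and hair cells, was at 0.341, 0.550 and 0.287 cpm against 12.6, 16.3 and 12.4 cpm. C57BL/6J was 35.0-fold above 129S1/Svlmj with no overlap, a difference of -3.40 ± 0.12 (limma q = 5.38e-08). On the log2 scale 5 of the other strains lay nearer to 129S1/Svlmj, down to 0.316 cpm in NZO/HlLtJ, and PWK/PhJ lay at 32.3 cpm. Ppara, a nuclear receptor that controls fatty acid oxidation, was at 0.0976, 0.223 and 0.176 cpm in 129S1/Svlmj and 4.84, 5.44 and 5.13 cpm in C57BL/6J. The strains were 31.1-fold apart (limma q = 4.69e-08), and of the other 6 only NZO/HlLtJ lay nearer to 129S1/Svlmj on that scale, at 0.130 cpm.

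Eps8l1, an actin regulator related to the EGF receptor substrate Eps8, was at 0.163, 0.171 and 0.176 cpm in 129S1/Svlmj and 3.15, 6.35 and 12.8 cpm in C57BL/6J. All C57BL/6J libraries were higher but spread widely, the call was lost without a filter on low values and without a log transformation, and the other 6 strains lay at 0.0644 to 1.35 cpm. Abhd14a, a predicted hydrolase, was at 1.93, 2.32 and 1.96 cpm against 13.2, 13.6 and 14.7 cpm, 6.66-fold lower without overlap. Its neighbour on chromosome 9, Abhd14b, chosen after its values were seen, moved the other way, at 22.5, 26.9 and 23.2 cpm against 7.73, 8.75 and 8.14 cpm. Acy1, which lies beside them and was also chosen after its values were seen, was at 2.32, 3.05 and 2.63 cpm against 2.29, 2.67 and 2.36 cpm and was not called. The sources do not say if the counting used strand, so reads of overlapping and antisense genes may be shared, and Abhd14b also shares 23.3% of its words with Gm28959.

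Copies of gene sequence were more frequent among the large differences. A gene was counted as sharing sequence when at least 20% of its 31-base words occurred in another gene, which held for 17.5% of genes tested, 26.5% of called genes and 51.7% of the 2-fold genes (125 of 242). For such genes the assignment of reads between copies can differ between strains, so their values are uncertain. Rpl29, a ribosomal protein, was at 0.551, 0.397 and 0.535 cpm in 129S1/Svlmj and 15.0, 14.3 and 15.1 cpm in C57BL/6J, but with its partners it summed to 27.5, 28.9 and 29.3 cpm against 38.3, 36.5 and 38.0 cpm. The strains stayed apart in the sum, at a log2 ratio of -0.40 in place of a difference of -3.40.

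Rps3a1, another ribosomal protein, was at 0.457, 0.819 and 0.737 cpm against 15.3, 14.2 and 15.5 cpm, while the sum with its partners was 47.8, 55.8 and 52.4 cpm against 51.0, 50.5 and 53.8 cpm. The sums overlapped with a log2 ratio of 0.01. Kpna2, an importin, was at 2.35, 1.86 and 1.94 cpm against 14.4, 16.2 and 16.4 cpm, and its sum was 117, 110 and 106 cpm against 120, 124 and 128 cpm. The difference of -2.45 thus became a log2 ratio of -0.16. Tagap, a GTPase-activating protein of T cells, was at 3.41, 4.09 and 3.73 cpm against 0.0655, 0.0704 and 0.0481 cpm, and its sum with partners of 7.99, 8.77 and 8.57 cpm against 13.4, 12.9 and 13.8 cpm had the opposite direction.

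The zinc finger genes Zfp990 (2.37) and Zfp982 (-2.52), both on chromosome 4, share 49.4% and 29.7% of their words with other genes, and the ciliary gene Mns1 (-2.58) shares 52.0%, mostly with Tex9. With its partners Zfp990 summed to 6.12, 5.03 and 6.03 cpm against 0.608, 0.664 and 0.742 cpm, a log2 ratio of 3.09 with no overlap. That sum leaves out Zfp982, which was at 0.21, 0.29 and 0.27 cpm against 6.37, 5.48 and 6.9 cpm. The sums of Zfp982, whose most abundant partner is Zfp990, overlapped. They were 6.65, 5.48 and 6.65 cpm against 6.79, 5.88 and 7.33 cpm with a log2 ratio of -0.09. The change of either gene alone is therefore uncertain. Mns1 with Tex9 summed to 15.0, 16.4 and 17.9 cpm against 23.7, 21.2 and 23.1 cpm, which did not overlap and gave -0.46. The histone genes H4c1 (1.98) and Hist1h4m (-2.34) share 47.9% and 91.7%, and their joint sum was 125, 134 and 118 cpm against 131, 152 and 141 cpm. That sum overlapped between the strains. Hist1h4m was listed at 0 in 129S1/Svlmj apart from the added offset and was at least 91.7-fold lower than in C57BL/6J against a floor of 3 reads. Klk1b22, a kallikrein protease, was at 2.75, 3.56 and 3.86 cpm in 129S1/Svlmj and listed at 0 in C57BL/6J and in the other 6 strains, at least 74.4-fold higher, with 41.1% of its words shared.

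Transcripts that are not protein-coding gave the most extreme differences. Of 954 long noncoding RNAs 142 were called (14.9%), of 22 small nuclear RNAs 9 (40.9%), and of 12516 protein-coding genes 884 (7.06%), against 7.64% of all genes. Lower shares were called among the transcripts of biotype TEC, 65 of 1264 (5.14%), and the small nucleolar RNAs, 1 of 34 (2.94%). Rprl3, an RNase P RNA-like gene, was at 64.5, 78.2 and 83.0 cpm in 129S1/Svlmj and 0.0321, 0.0001 and 0.101 cpm in C57BL/6J, and the other 6 strains lay at 63.9 to 364 cpm. C57BL/6J alone stood low. The long noncoding RNA Gm19667 was at 3.87, 3.55 and 4.12 cpm against 69.5, 64.2 and 65.5 cpm, 17.3-fold lower, with 0.428% of its words shared. Of 818 processed pseudogenes 69 were called (8.44%), 57 higher and 12 lower.

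The remaining noncoding genes of largest difference share sequence with others. Gm4735, a pseudogene with 98.7% of its words in common with other genes and mainly Eno1b, was at 2.13, 3.58 and 2.60 cpm in 129S1/Svlmj and 112, 143 and 106 cpm in C57BL/6J. The strains were 43.4-fold apart, but the summed family was 404, 527 and 456 cpm against 471, 492 and 459 cpm. The small nuclear RNA genes Gm25360 (5.08) and Gm25939 (-3.35) belong to a single family whose sum was 752, 699 and 857 cpm against 726, 728 and 685 cpm. Gm7292 (3.69) summed with its partner to 196, 198 and 194 cpm against 193, 203 and 200 cpm. These 3 sums overlapped between the strains.

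The other 6 strains were compared with both on the log2 scale. Of the 242 genes of 2-fold difference, 48 (19.8%) had the means of all 6 other strains nearer to 129S1/Svlmj, 20 (8.26%) had them all nearer to C57BL/6J, and 174 were divided. The counts were 34 and 7 among the 141 genes lower in 129S1/Svlmj and 14 and 13 among the 101 higher genes, and over all 1208 called genes the shares were 10.9% and 7.37%. Sag, Kcnj10, Gabra2 and Eps8l1 were among the called genes at which C57BL/6J stood apart. Guca1b, Trhde, Gdpd3, Klk1b22 and Serpina3n were among those at which 129S1/Svlmj stood apart. The share of 2-fold genes nearer to 129S1/Svlmj ran from 53.7% in A/J to 61.6% in WSB/EiJ. This is a description without a test, and since the reference is that of C57BL/6J, its distance from the rest cannot be told apart from read matching.

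The share of genes called was also counted by position, without a test against chance. Of 325 windows of 5 Mb with at least 20 genes tested, the median share called was 7.14% and the highest 42.9%, at 15 to 20 Mb of chromosome 12. At least 20% were called in 25 windows, and 51 windows held no call. By chromosome the share ran from 3.88% on chromosome 16 and 4.10% on chromosome 10 to 12.5% on chromosome 18 and 13.0% on chromosome 14. The window at 170 to 175 Mb of chromosome 1 had 16 of 47 genes called (34%), 7 higher and 9 lower, and includes Kcnj10. The kinase gene Uhmk1 and the coatomer gene Copa of that window were chosen after their values were seen. Uhmk1 was at 205, 207 and 197 cpm in 129S1/Svlmj and 136, 139 and 130 cpm in C57BL/6J, and Copa was at 56.1, 59.98 and 57.1 cpm against 83.8, 86.2 and 87.6 cpm. Neither overlapped between the strains, and they moved in opposite directions.

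**Figure D4:**
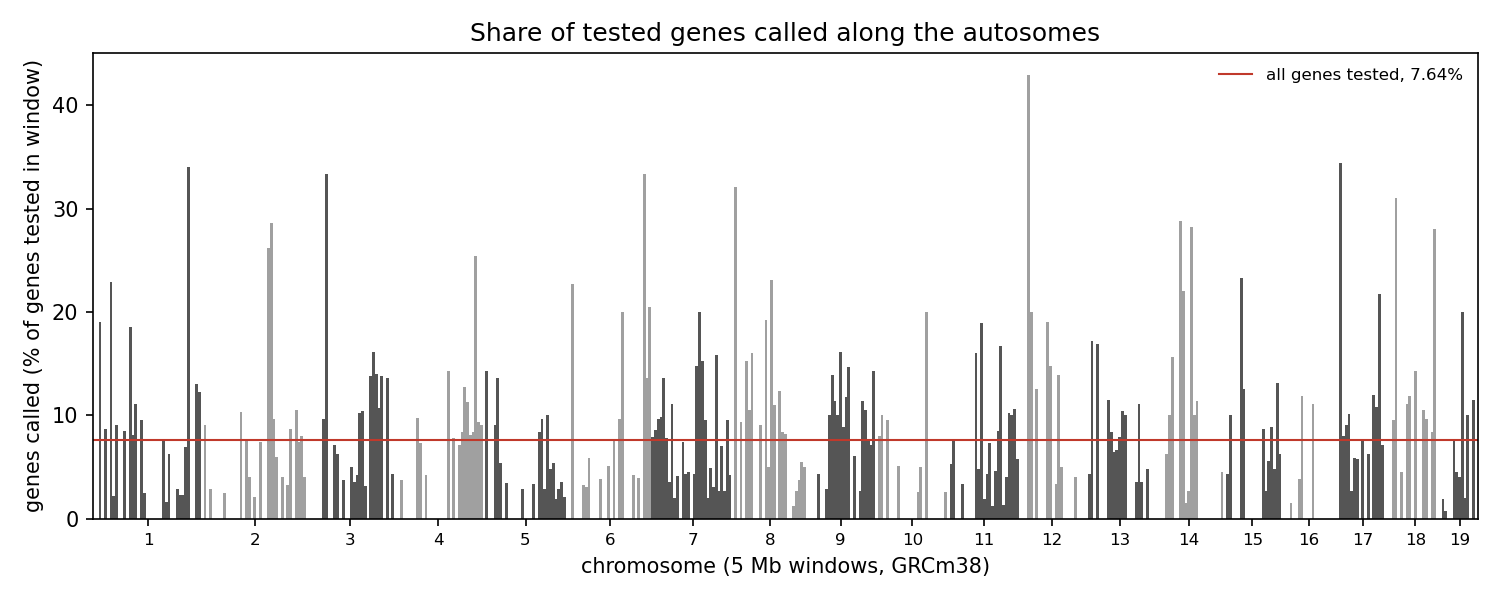
Share of tested genes called in each 5 Mb window along chromosomes 1 to 19, in percent, for windows with at least 20 genes tested, with the line at 7.64% over all genes. The tallest bar, 42.9%, stands at 15 to 20 Mb of chromosome 12, and windows reach 34% on chromosome 1 and 34.4% on chromosome 17.

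The strains differ in refraction and throughout the genome, so which of the differences belong to refraction cannot be told apart from strain background with 1 strain of each kind.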

How the data were processed

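Retinal total RNA was sequenced from stranded, ribosomal RNA-depleted libraries. Per the submitters' processing notes and the methods, the authors trimmed reads, aligned them with STAR to GRCm38 and counted reads per gene with Partek (versions not given in the sources used here). The deposited values are cpm with an offset of 0.0001, for 28802 genes in 24 libraries, 6 of which were compared. Whether the counting used strand is not stated.

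Genes outside chromosomes X and Y with a mean of at least 0.5 cpm over the 6 libraries were tested on log2(cpm + 1) with limma 3.58.1 (lmFit and eBayes with a trend, two-sided) in R 4.3.3, and a Storey q under 0.01 was called. The script was tested on simulated data. Depth was estimated from the spacing of low values, of which 88.9% to 89.7% came out whole within 0.02, too few for a count test. At 59421000 to 78150000 reads, 3 reads equal 0.0384 to 0.0505 cpm. Shared 31-base words were counted between genes of GENCODE M21, to which 28743 genes were matched. Tables and figures were made with Python 3.11.15.

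Genes were named by rule: the 10 protein-coding genes of each sign with the largest difference among those called in all 7 leave-out fits, the 3 of each sign among other biotypes, up to 4 called members of each of 22 gene lists by moderated t, and the marker and strain checks. Genes named outside it are identified as chosen after their values were seen. Members and lists were chosen with earlier results of these data known. Nnt, Casp4, Nlrp12, Disc1, Ahr, Tyr, Rpe65 and Cox7a2l of the strain check gave no call, Casp4, Nlrp12 and Disc1 being below the filter on low values. Some genes that the rule selects are not reported here.

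Alternatives were a filter at 5 cpm, no filter, a pseudocount of 0.1, quantile normalization, scaling by median ratios, Benjamini-Hochberg adjustment, q under 0.05, a fit to all 24 libraries, X and Y kept, no trend, no log transformation, and leaving out libraries.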

Additional observations from a re-analysis of the deposited data

How the results depend on the processing

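The count of 1208 called genes was 604 with a mean of at least 5 cpm (265 higher, 339 lower, with fewer genes tested), 2304 at q under 0.05 (1086 higher, 1218 lower) and 2359 with all 24 libraries in the fit (1128 higher, 1231 lower, with more samples). Leaving out a single replicate gave 709 to 1043 called genes, 329 to 449 higher and 380 to 618 lower, with 2 samples left in the strain concerned. Genes called with a 2-fold difference numbered 428 with a pseudocount of 0.1 (205 higher, 223 lower) and 90 with a mean of at least 5 cpm (34 higher, 56 lower), and 232 to 248 without a single replicate (97 to 106 higher, 133 to 145 lower). The other alternatives kept the counts within 1.5 times, but not always the same genes. The fit without a filter called 887 genes and shared 664 with the main fit, 55% of the main calls. Of 65 named genes 39 kept their call in every alternative that tested them, and Gnat1 alone reversed, to 0.047 (limma q = 0.441) under quantile normalization, where the cause was not tested; its q was 7.23e-06 to 0.659 over the alternatives. Without a filter 22 named genes lost their call, and without C57BL/6J replicate 3 there were 19. Across alternatives, the counts of list members called stayed within 1.5 times in 597 cases and moved further in 195, and calls of named genes were kept in 989 cases and lost in 158. No paired analysis was run because the labels give no replicate numbers. A fit with a term for sex, as read from Xist, was not run either. The methods state that libraries were pooled in randomized complete blocks, which the fits did not include. Values under 3 reads, 0.0384 to 0.0505 cpm, are within counting error.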

Other observations

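Several abundant retinal genes outside the lists were called, chosen here after their values were seen. Nr2e3, a transcription factor of rod fate, was at 136, 120 and 112 cpm in 129S1/Svlmj and 170, 211 and 163 cpm in C57BL/6J. It was lower in every 129S1/Svlmj library, by -0.56, and was called in 6 of the 7 leave-out fits. Rpgrip1, a scaffold of the photoreceptor connecting cilium, was at 344, 375 and 349 cpm against 533, 538 and 524 cpm, separate between the strains with a difference of -0.58. Rpph1, the RNA component of RNase P, was at 446, 594 and 570 cpm against 2444, 2632 and 2590 cpm, with 70.2% of its words shared with other genes, so that its value is uncertain.

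With chromosomes X and Y kept in the test, 16 of the 533 genes tested on them were called, among 1213 of 16342 genes in all. The medium-wavelength cone opsin Opn1mw was at 19.5, 17.6 and 18.5 cpm in 129S1/Svlmj and 27.7, 28.5 and 26.2 cpm in C57BL/6J, lower in each 129S1/Svlmj library by -0.54. Rpgr, which binds the ciliary protein encoded by Rpgrip1, was at 23.3, 23.3 and 24.4 cpm against 19.9, 18.0 and 19.3 cpm, higher in each 129S1/Svlmj library by 0.30. Both genes were chosen after their values were seen.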
